A study of Mus musculus with 16 samples.

Results

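The data are the log2 signals of 10 endothelial and angiogenic factor genes, Vegfa, Vegfc, Flt1, Kdr, Tek, Angpt1, Angpt2, Pecam1, Cdh5 and Vcam1, in normal mouse skin and in skin carcinomas, measured on Affymetrix MOE430 2.0 arrays. The genes were chosen by name. All probesets that the platform annotation gives to 1 of these symbols alone were taken, which gave 21 of the 45037 probesets tested and 10 of the 18193 genes with such a probeset. The control group was normal, wild type skin from 4 samples of the FVB background. The tumors, also FVB and labelled squamous cell carcinoma, arose in k14Cre;p53loxP/loxP mice (7 p53 tumors) and in k14Cre;p53loxP/loxP;pRbloxP/loxP mice (5 pRbp53 tumors). The Cre is driven by the keratin promoter that is active in stratified epithelia, so the deletion is not directed at vessels, fibroblasts or blood cells. By histology, 3 p53 tumors were poorly differentiated (numbers 2, 4 and 5), 1 was undifferentiated (3), 1 was a spindle cell carcinoma (6) and 2 were mixed (1 and 7). Of the pRbp53 tumors, 4 were spindle cell carcinomas (1, 2, 3 and 5) and 1 was mixed (4). The control skin came from adult mice, and the ages of the tumor-bearing mice were not found in the sources used here. Whether each sample came from its own animal is not in the labels, and the p-values therefore cover the spread among these samples alone.

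New vessels grow when ligands made by the tissue, chiefly the vascular endothelial growth factors, bind receptor tyrosine kinases on endothelial cells. Vegfa signals through Kdr, the main mitogenic receptor, while Flt1 binds Vegfa tightly with weak kinase activity and also exists as a soluble decoy. Vegfc acts mainly on lymphatic endothelium through Flt4. Angpt1, made by perivascular and stromal cells, activates the endothelial receptor Tek (Tie2) and steadies vessels, and Angpt2, released by activated endothelium, can oppose it. Pecam1 and Cdh5 (VE-cadherin) hold endothelial cells to each other, and Vcam1 on activated endothelium and on some stromal cells binds leukocyte integrins. In whole tissue, fewer cells of a type and less RNA per cell cannot be told apart.

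Array medians ran from 5.63 to 5.77, and precision is limited by how many arrays there are. The actin probesets, whose signal drops towards the 5' end when RNA is broken, gave a 3' minus 5' difference of 0.21 to 0.68 in 14 arrays, of 1.33 in control skin 3 and of 1.67 in p53 tumor 7. The milk protein gene Csn2 had a log2 signal of 9.83 in control skin 3 and of 11.65, 10.80, 8.75 and 13.67 in p53 tumors 2, 3, 4 and 5, and below 5 in the other arrays. Control skin 2 and 4 correlated at 0.9957 over all probesets, above the 0.9843 of the next most similar pair of control skins. Markers of other tissue differed between tumors and control skin. In tumors, 10 of 10 skeletal muscle genes, 6 of 6 adipocyte genes and 7 of 8 keratinocyte genes were lower. The cut was an adjusted p of 0.05 with limma, which 6.85% of all probesets passed as lower. The part of these tissues in the results below was not tested. The mean signal of the muscle list was 12.99 to 13.26 in control skin and 4.55 to 8.35 in tumors.

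The first comparison asked how the genes differed between the 12 tumors and the 4 control skins. Vegfa, Angpt2, Flt1 and Vcam1 were higher in tumors, Tek was lower, and Vegfc, Angpt1, Kdr, Pecam1 and Cdh5 did not pass the test. Thus 5 of 10 genes passed an adjusted p of 0.05, against 13.2% of all probesets. Of the 5, 4 were higher (6.36% of all probesets) and 1 lower (6.85%). Each gene was read at its main probeset, the one with the highest mean over all arrays. All 10 main probesets lay above the median signal of all probesets. Among the 22518 probesets above that median alone, the same 5 genes passed, with 4607 probesets in all. For 3 genes, Vegfa, Angpt2 and Vcam1, no tumor overlapped a control skin at the main probeset, against 6.86% of all probesets. The plot of signals by group shows each array.

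**Figure D1:**
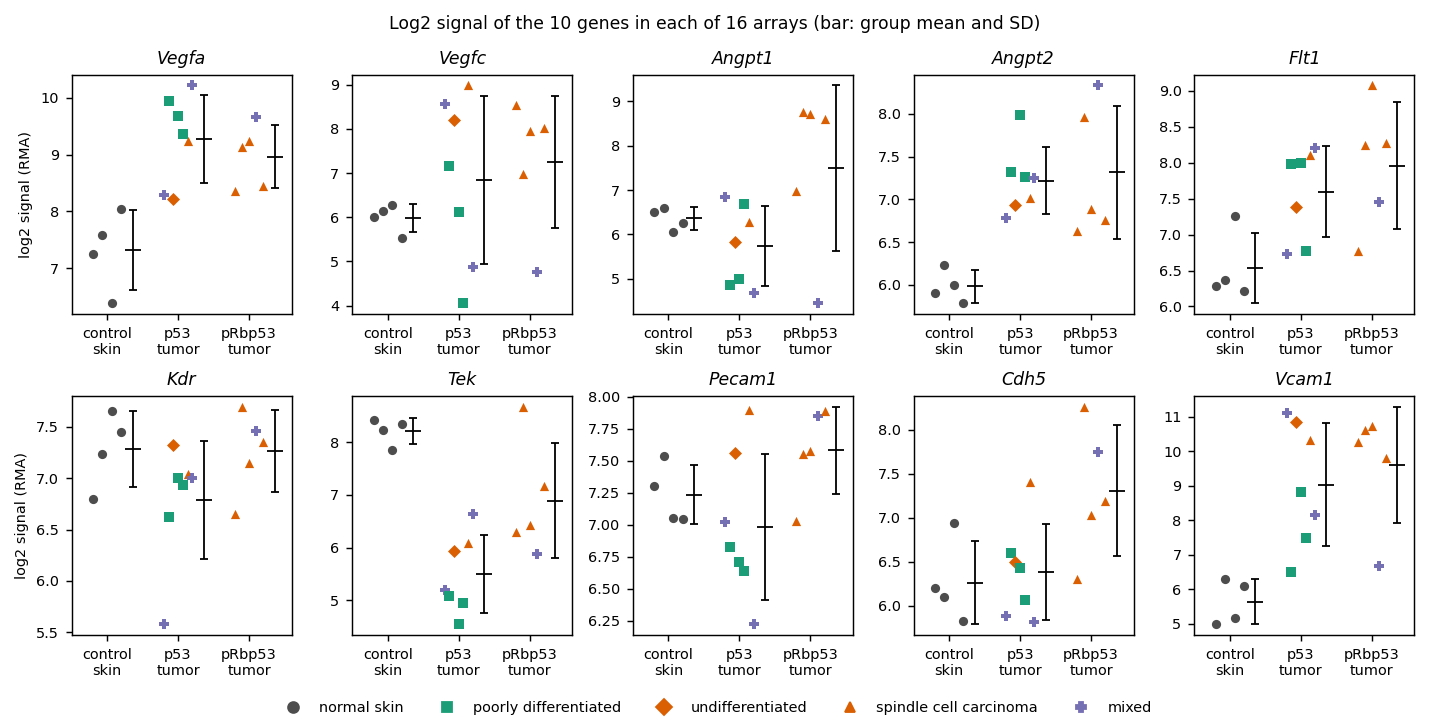
Log2 signal (vertical axis) of the main probeset of each of the 10 genes in 4 control skins, 7 p53 tumors and 5 pRbp53 tumors. Each point is 1 array, its shape and colour give the histology, and the bar beside each group is its mean and SD. All tumors lie above all control skins for Vegfa, Angpt2 and Vcam1, and all but pRbp53 tumor 2 lie below them for Tek.

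Among the ligands, Vegfa was read at 7.26, 7.58, 6.38 and 8.05 in control skin 1 to 4. In the p53 tumors it ranged from 8.22 to 10.22 with a median of 9.36, and in the pRbp53 tumors it was 8.35, 9.13, 9.23, 9.65 and 8.45. Its lowest tumor, the undifferentiated p53 tumor 3 at 8.22, was above its highest control skin. The log2 difference of 1.83 ± 0.38 (SE; adjusted p = 0.0038 with limma) came with 1.60 ± 0.28 at the second Vegfa probeset (adjusted p = 0.0011). Angpt2 was 5.91, 6.23, 6.0 and 5.79 in control skin, 6.78 to 7.98 with a median of 7.25 in the p53 tumors, and 6.63, 7.96, 6.89, 8.33 and 6.76 in the pRbp53 tumors. Every tumor was again above every control skin, by the narrowest margin in pRbp53 tumor 1. The difference was 1.27 ± 0.27 (SE, adjusted p = 0.0052). The second Angpt2 probeset gave a mean signal of 3.69 in control skin and 3.82 in tumors, a difference of 0.13 ± 0.10 that did not pass (adjusted p = 0.4664). At that probeset tumors and control skins overlapped.

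Vegfc and Angpt1 did not pass and ran over a wider range in tumors than in control skin. Vegfc was 5.99 ± 0.32 (SD, n = 4) in control skin and ran from 4.05 to 8.98 in tumors, with p53 tumors 5 and 7 and pRbp53 tumor 4 below all control skins and p53 tumor 4 among them. Its difference of 1.03 ± 0.81 did not pass (adjusted p = 0.4614), nor did the other Vegfc probesets. Angpt1 was 6.52, 6.61, 6.05 and 6.27 in control skin, 4.69 to 6.84 with a median of 5.83 in the p53 tumors, and 6.98, 8.76, 8.72, 4.45 and 8.60 in the pRbp53 tumors. It was highest in 3 spindle pRbp53 tumors and lowest in the mixed pRbp53 tumor 4. The difference was 0.11 ± 0.77, with a 95% interval from −1.52 to 1.74, and 0.76 ± 0.52 at the second Angpt1 probeset (adjusted p = 0.3822).

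The receptors did not move together. Tek was 8.42, 8.24, 7.86 and 8.35 in control skin, 4.55 to 6.64 with a median of 5.20 in the p53 tumors, and 6.31, 8.67, 6.43, 5.88 and 7.17 in the pRbp53 tumors. Only the spindle pRbp53 tumor 2 reached the level of control skin and exceeded it, while all 7 p53 tumors lay below every control skin. Tek fell by 2.14 ± 0.55 on the log2 scale (adjusted p = 0.0156). The call was lost without control skin 1 (adjusted p = 0.0577), without control skin 4 (0.0503) and without the 5 arrays with a high Csn2 signal (0.0682). Flt1 was 6.28, 6.37, 7.26 and 6.21 in control skin, 6.73 to 8.20 with a median of 7.99 in the p53 tumors, and 6.77, 8.24, 9.08, 7.45 and 8.27 in the pRbp53 tumors. Control skin 3, one of the arrays with a high actin ratio, was above p53 tumors 1 and 5 and pRbp53 tumor 1, so the groups overlapped. Flt1 rose by 1.22 ± 0.38 (adjusted p = 0.0426), and 2 of its 3 other probesets also passed, at 1.24 ± 0.36 and 1.11 ± 0.35. This call lay close to the threshold. It was lost on leaving out any 1 of control skins 1, 2 and 4, p53 tumors 2, 4, 6 and 7 and pRbp53 tumors 2 and 5, with adjusted p from 0.0526 to 0.1324. Kdr was 6.80, 7.23, 7.65 and 7.45 in control skin, 5.58 to 7.32 in the p53 tumors and 6.65 to 7.70 in the pRbp53 tumors, with most tumors inside the range of the control skins. Its difference was −0.30 ± 0.28 with a 95% interval from −0.90 to 0.30.

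The sequence before 1 annotated transcript start of each of these 3 receptors is shown because the receptors, all known as endothelial genes, differed in direction. They are the 250 bases before a RefSeq transcript start of GRCm38.p6, written 5′ to 3′ along the gene, Flt1 at chr5:147726012-147726261 (minus strand), Kdr at chr5:75978456-75978705 (minus strand) and Tek at chr4:94739039-94739288 (plus strand). Capitals mark matches to CCGGAA or AGGAAG on either strand, 2 forms of the core that ETS factors bind in many endothelial genes. The motifs do not overlap here. The Flt1 and Kdr windows lie inside the annotated genes, which on the minus strand begin at 147726438 and 75979072. The Tek window runs into the annotated gene, which begins at 94739086. None of the windows is therefore wholly upstream of its gene.
Flt1: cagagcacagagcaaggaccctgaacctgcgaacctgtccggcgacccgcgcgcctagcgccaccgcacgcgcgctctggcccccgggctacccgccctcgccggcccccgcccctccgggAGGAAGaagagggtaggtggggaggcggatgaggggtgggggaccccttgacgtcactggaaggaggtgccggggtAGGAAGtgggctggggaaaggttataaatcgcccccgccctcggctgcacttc
Kdr: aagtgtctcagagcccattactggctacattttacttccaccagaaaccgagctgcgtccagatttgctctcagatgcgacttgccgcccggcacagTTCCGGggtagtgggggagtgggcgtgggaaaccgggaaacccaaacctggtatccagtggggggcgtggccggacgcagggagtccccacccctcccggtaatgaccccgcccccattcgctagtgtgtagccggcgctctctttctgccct
Tek: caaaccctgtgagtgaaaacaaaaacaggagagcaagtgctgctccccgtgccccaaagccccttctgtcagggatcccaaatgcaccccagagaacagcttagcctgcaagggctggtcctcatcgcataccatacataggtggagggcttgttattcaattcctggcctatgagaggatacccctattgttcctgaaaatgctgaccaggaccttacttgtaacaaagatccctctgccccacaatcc
Flt1 held 2 matches, both AGGAAG, and Kdr held 1, to CCGGAA on the other strand. Tek held none in this window. Of all 32851 windows of this length, 38.2% hold at least 1 match, 12% to CCGGAA and 29.5% to AGGAAG, so a match is a description of the letters only.

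The junction genes did not pass. Pecam1 was 7.30, 7.53, 7.06 and 7.05 in control skin, 6.22 to 7.90 in the p53 tumors and 7.03 to 7.88 in the pRbp53 tumors. Both groups had a mean of 7.23, and the difference of 0.00 ± 0.28 had a 95% interval from −0.60 to 0.59. Cdh5 was 6.20, 6.10, 6.94 and 5.82 in control skin, 5.81 to 7.41 with a median of 6.42 in the p53 tumors, and 6.30, 8.27, 7.04, 7.75 and 7.19 in the pRbp53 tumors. It was above every control skin in 4 of the 5 pRbp53 tumors and in p53 tumor 6. The difference over all tumors was 0.51 ± 0.39, with a 95% interval from −0.33 to 1.34.

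Vcam1 had the largest difference of the 10 genes. It was 4.99, 6.32, 5.18 and 6.09 in control skin, 6.50 to 11.11 with a median of 8.81 in the p53 tumors, and 10.26, 10.61, 10.72, 6.67 and 9.80 in the pRbp53 tumors. At this main probeset all tumors were above all control skins, although the poorly differentiated p53 tumor 2 (6.50) and the mixed pRbp53 tumor 4 (6.67) were close to them. Vcam1 rose by 3.63 ± 0.83 (adjusted p = 0.0079). Of its other probesets, 1 rose by 2.65 ± 0.80 (adjusted p = 0.0390) and the third was at 1.67 ± 0.68 (adjusted p = 0.1267). Tumors and control skins overlapped at each of these other probesets. At the former, p53 tumor 7 was at 6.07 and control skin 2 at 6.31. At the latter, pRbp53 tumor 4 was at 6.25 and control skin 1 at 6.40. In the plot of probeset differences, 8 of the 21 probesets passed as higher and 1 as lower.

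**Figure D2:**
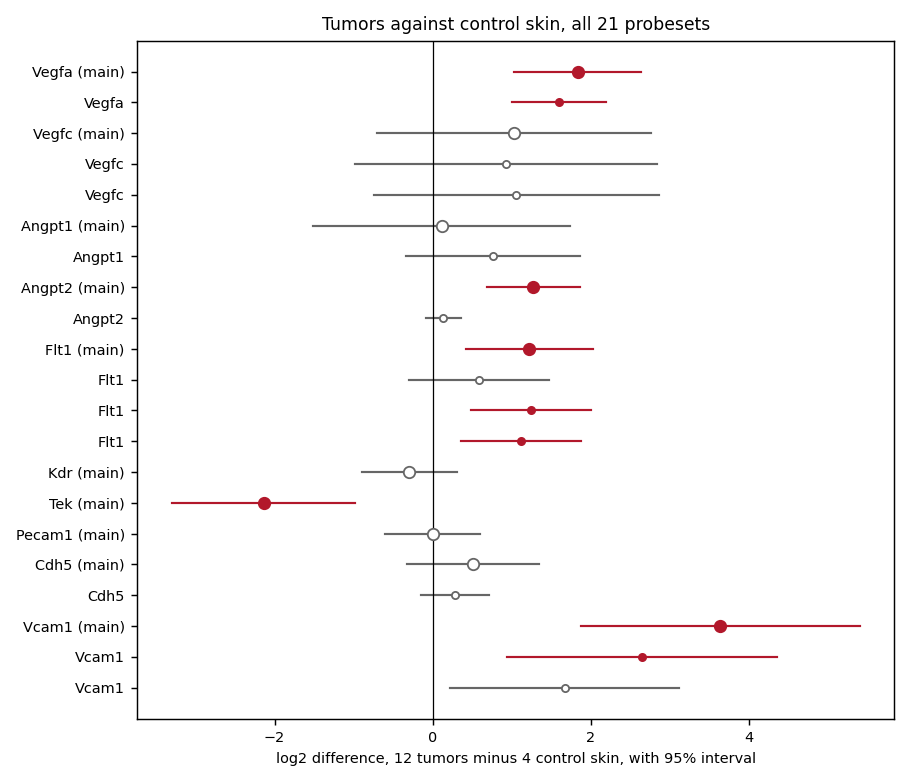
Log2 difference between the mean of 12 tumors and the mean of 4 control skins (horizontal axis) for all 21 probesets, with its 95% interval. Large points are the main probeset of each gene, and filled red points passed an adjusted p of 0.05. Tek is the probeset that fell; the probesets of Vegfa, the main Angpt2 probeset, 3 of Flt1 and 2 of Vcam1 rose.

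Differences taken within each array remove what is common to the whole array and set the genes against each other across samples. Tek minus the mean of Cdh5 and Pecam1 was 0.86 to 1.91 in the 4 control skins and −2.02 to 0.76 in the 12 tumors, without overlap. The tumor nearest to control skin on this measure was pRbp53 tumor 2. Flt1 minus Kdr was −1.23 to −0.40 in control skin and −0.17 to 1.93 in tumors, again without overlap. Angpt2 minus Angpt1 was −0.60 to −0.05 in control skin and −1.84 to 3.88 in tumors, so the balance of the Tek ligands went both ways among tumors. These quantities were formed with the levels of the genes known and carry no test.

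The other genes of the VEGF and Tie pathway and of endothelium showed few differences between tumors and control skin. Of 7 further pathway genes (Vegfb, Vegfd, Pgf, Flt4, Nrp1, Nrp2 and Tie1) none passed, with a median difference of 0.32 against 0.07 over all probesets. Pgf, a ligand of Flt1, was at 1.95 ± 0.81 (adjusted p = 0.1316). Of 23 genes of endothelial identity, 1 passed: Ramp2, a receptor partner needed for adrenomedullin signalling in vessels, fell by 1.52 ± 0.36 (adjusted p = 0.0097), and the median of the list was 0.05. Of 11 tip cell and Notch genes, 3 rose and none fell, against 6.36% and 6.85% of all probesets. Apln, a peptide made by sprouting endothelium, was 5.13 to 6.65 in control skin and 6.85 to 8.80 in tumors (1.72 ± 0.37, adjusted p = 0.0055). Notch4, an endothelial Notch receptor, rose by 1.40 ± 0.32 (adjusted p = 0.0086) and its ligand Dll4 by 0.89 ± 0.21 (adjusted p = 0.0099), both without overlap between the groups, as for 6.86% of all probesets. The median of that list was 0.35.

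Of 6 lymphatic genes, Mmrn1 fell by 2.43 ± 0.51 (adjusted p = 0.0041) and the other 5 did not pass. Of 5 endothelial genes for leukocyte adhesion (Sele, Selp, Icam1, Icam2 and Madcam1), which like Vcam1 take part in holding leukocytes to vessel walls, none passed. Of 10 mural cell genes, Des fell by 4.60 ± 0.54 (adjusted p = 2.13e-05); this intermediate filament is also a skeletal muscle protein, and the muscle list fell as a whole. Of 7 measured angiogenesis inhibitors, Thbs1 rose by 2.35 ± 0.52 (adjusted p = 0.0063). Of 11 hypoxia factors and targets other than Vegfa, Hif1a rose by 1.14 ± 0.23 (adjusted p = 0.0028) and Pgk1, a glycolytic enzyme, by 0.87 ± 0.19 (adjusted p = 0.0058), with a list median of 0.68. Of 9 macrophage genes 1 passed, Cd163, which fell by 2.69 ± 0.67 (adjusted p = 0.0135), with a list median of 0.17. Of 6 neutrophil genes 1 passed, S100a8, which rose by 3.29 ± 1.02 (adjusted p = 0.0427), with a median of 0.72. Of 5 platelet and 8 fibroblast genes none passed, with medians of 0.15 and −1.54. Over all probesets 13.2% passed, with a median of 0.07.

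The second comparison asked whether the loss of pRb in addition to p53 went with a difference in these genes (5 pRbp53 against 7 p53 tumors). None of the 10 genes passed an adjusted p of 0.1, against 0.198% of all probesets, and for none did the groups separate without overlap, against 0.913% of all probesets. At an unadjusted p under 0.05 there were 4 genes, against 9.29% of all probesets, each with a higher mean in pRbp53 tumors. Tek differed by 1.40 ± 0.49 (adjusted p = 0.4054), Cdh5 by 0.93 ± 0.35 (0.4368), Angpt1 by 1.76 ± 0.74 (0.4942) and Pecam1 by 0.60 ± 0.27 (0.5377). All poorly differentiated tumors were p53 tumors, and the high Csn2 signal was in p53 tumors 2, 3, 4 and 5 and in no pRbp53 tumor. Over the 12 tumors, genotype therefore cannot be told apart from grade and Csn2. The intervals were wide for the ligand and adhesion genes, from −1.67 to 2.48 for Vegfc and from −1.49 to 2.64 for Vcam1, and narrower for Vegfa (−1.15 to 0.51) and Angpt2 (−0.60 to 0.79). Among undifferentiated or spindle tumors alone, Vegfa, Vegfc, Pecam1 and Vcam1 had the opposite sign without passing, at 0.06, −0.71, −0.22 and −0.25. No gene of any of the 15 lists passed between the genotypes either, and the same count of 0 was found with the methods' t-test for the 10 genes.

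Each genotype was also set against the same 4 control skins, so both comparisons share their controls. In the p53 tumors 4 genes passed (12% of all probesets), namely Vegfa at 1.96 ± 0.41, Angpt2 at 1.24 ± 0.31, Vcam1 at 3.39 ± 0.92 and Tek at −2.72 ± 0.47 (adjusted p = 0.0057, 0.0158, 0.0253 and 0.0014). In the pRbp53 tumors 4 genes passed (12.4%), namely Vegfa at 1.64 ± 0.44, Angpt2 at 1.33 ± 0.33, Vcam1 at 3.97 ± 0.98 and Flt1 at 1.43 ± 0.44 (adjusted p = 0.0234, 0.0147, 0.0150 and 0.0450). The second Angpt1 probeset passed there at 1.54 ± 0.48 (adjusted p = 0.0482), its main probeset not at 1.14 ± 0.76 (0.3863). The other Flt1 probesets did not pass there (limma adjusted p = 0.4132, 0.0843 and 0.0678). The other Vcam1 probesets passed in neither genotype (0.0941 and 0.2465 in p53, 0.0566 and 0.1367 in pRbp53 tumors). Nor did the second Angpt2 probeset (0.7340 and 0.2955), while the second Vegfa probeset passed in both. Tek stood at −1.32 ± 0.51 in the pRbp53 tumors (adjusted p = 0.1073), and the test between the genotypes above did not separate the 2 values. In the p53 tumors Angpt2 lost its call without control skin 1 or 4 and Vcam1 without control skin 1, 3 or 4, which left as few as 2 genes; Vcam1 was also lost with the replicate block. In the pRbp53 tumors Flt1 was lost without control skin 1, 2 or 4 or pRbp53 tumor 2, 3 or 5, Vegfa without control skin 1 or 3 or pRbp53 tumor 2 or 4, and Vcam1 without control skin 1, which left 1 gene. Tek passed there without pRbp53 tumor 2, Cdh5 without pRbp53 tumor 1 and Angpt1 without pRbp53 tumor 4.

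The third comparison asked how the genes differed with histological grade, between 6 undifferentiated or spindle tumors and 3 poorly differentiated tumors. Vcam1 and Pecam1 were higher in undifferentiated or spindle tumors and passed an adjusted p of 0.05. This is 2 of 10 genes against 7.39% of all probesets (3.4% as higher). Among the 22518 probesets above the median signal alone, 4 genes passed, with Vegfc and Tek added, and 2970 probesets in all. The groups did not overlap for 4 genes, Vcam1, Pecam1, Tek and Vegfa, against 13.8% of all probesets. Over all probesets of the 10 genes, 6 of 21 passed as higher, 3 of Vcam1, 2 of Vegfc and 1 of Pecam1. All 3 poorly differentiated tumors were p53 tumors and had the high Csn2 signal, which 1 of the 6 other tumors, p53 tumor 3, shared. With the Csn2 arrays left out no poorly differentiated tumor remains, so Csn2 and grade cannot be told apart.

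Vcam1 was 6.50, 8.81 and 7.49 in poorly differentiated p53 tumors 2, 4 and 5, and 9.80 to 10.86 with a median of 10.48 in undifferentiated or spindle tumors. The 3 mixed tumors, which this comparison leaves out, fell at 11.11, 8.15 and 6.67, across the whole range. The difference was 2.83 ± 0.45 (SE, limma adjusted p = 0.0071), and the other probesets gave 2.48 ± 0.41 (adjusted p = 0.0087) and 2.16 ± 0.40 (0.0142). Pecam1 was 6.83, 6.71 and 6.64 in poorly differentiated tumors and 7.03 to 7.90 with a median of 7.57 in undifferentiated or spindle tumors. The mixed tumors were at 7.02, 6.22 and 7.85. The difference was 0.86 ± 0.19 (adjusted p = 0.0268). Within the p53 tumors, where 2 undifferentiated or spindle tumors stood against 3 poorly differentiated ones, the differences were 3.0 ± 0.71 for Vcam1 and 1.0 ± 0.17 for Pecam1, of the same direction, with adjusted p of 0.1336 and 0.0747. Pecam1 also lost its call on leaving out p53 tumor 2, 4 or 5 or pRbp53 tumor 5, with adjusted p from 0.0517 to 0.0889.

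Tek was 5.09, 4.55 and 4.96 in poorly differentiated tumors, the 3 lowest signals of all tumors, and 5.94 to 8.67 with a median of 6.37 in undifferentiated or spindle tumors. The groups did not overlap, but the difference of 1.91 ± 0.56 did not pass (adjusted p = 0.0796). It passed without pRbp53 tumor 2, the highest array, at 1.52 (adjusted p = 0.0207). Vegfa went the other way, with 9.93, 9.69 and 9.36 in poorly differentiated tumors and 8.22 to 9.24 in undifferentiated or spindle tumors. The difference was −0.89 ± 0.28 (adjusted p = 0.0991), and its second probeset gave −0.66 ± 0.33 (adjusted p = 0.2865).

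Vegfc was 7.16, 6.11 and 4.05 in poorly differentiated tumors and 6.98 to 8.98 with a median of 8.10 in undifferentiated or spindle tumors. Only pRbp53 tumor 2 reached below the highest poorly differentiated tumor. The main probeset differed by 2.34 ± 0.64 (adjusted p = 0.0650) and the other probesets rose by 2.64 ± 0.61 (0.0340) and 2.46 ± 0.62 (0.0483), so the call depended on the probeset. Without p53 tumor 2 the main probeset passed as well, at 3.03 (adjusted p = 0.0344). Angpt1 was at 2.01 ± 0.79 (adjusted p = 0.1757), with values of 4.86, 4.99 and 6.69 in poorly differentiated tumors. Flt1, Kdr, Cdh5 and Angpt2 lay at 0.39 ± 0.49, 0.35 ± 0.21, 0.75 ± 0.39 and −0.49 ± 0.30, with overlapping groups and adjusted p of 0.7204, 0.4001, 0.3139 and 0.3926.

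**Figure D3:**
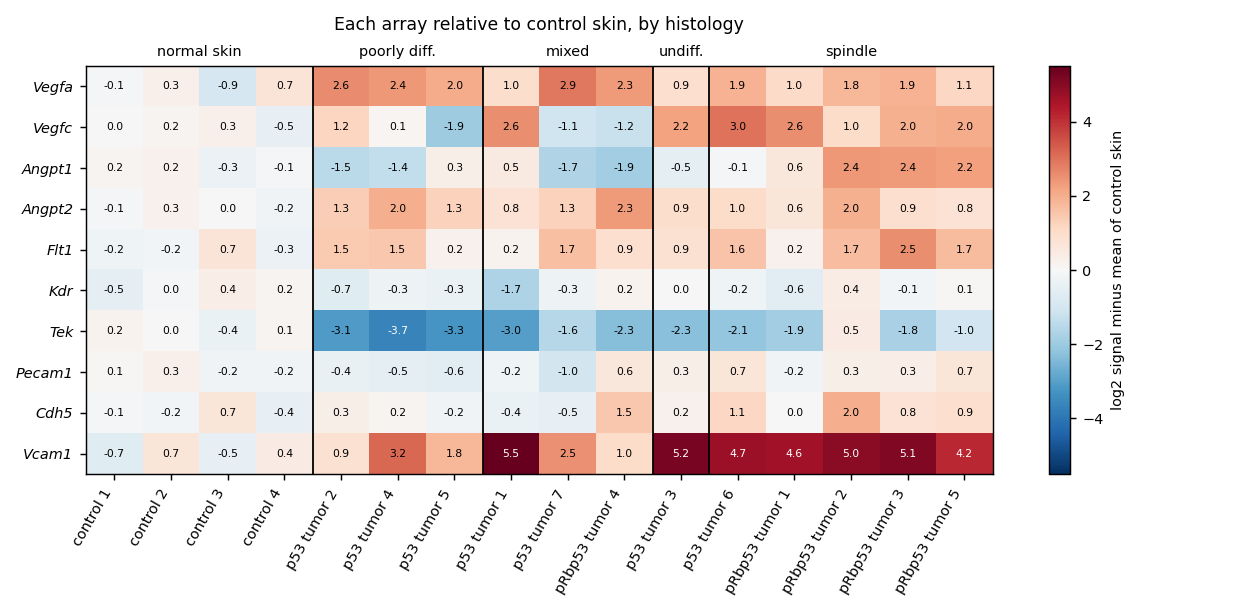
Log2 signal of each array minus the mean of the 4 control skins, for the 10 genes (rows) and 16 arrays (columns) grouped by histology; colour and printed value give the difference. Vcam1 is 4.2 or more above control skin in all undifferentiated or spindle tumors and at 0.9, 3.2 and 1.8 in the poorly differentiated ones, while Tek is below control skin in 11 of 12 tumors and lowest in the poorly differentiated ones.

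Each histological group was also set against the same 4 control skins. In the poorly differentiated tumors Vegfa was at 2.34 ± 0.45, Angpt2 at 1.54 ± 0.35 and Tek at −3.35 ± 0.53, and these 3 genes passed (11.7% of all probesets). In the undifferentiated or spindle tumors 6 genes passed (19.5%), Vegfa at 1.45 ± 0.38, Vegfc at 2.12 ± 0.71, Flt1 at 1.44 ± 0.43, Angpt2 at 1.05 ± 0.30, Vcam1 at 4.79 ± 0.67 and Tek at −1.45 ± 0.45. In the mixed tumors 4 passed (8.48%), Vegfa at 2.07 ± 0.45, Angpt2 at 1.47 ± 0.35, Vcam1 at 3.0 ± 0.79 and Tek at −2.31 ± 0.53. In the mixed tumors Vegfa, Angpt2 and Vcam1 lost their calls when this group was fitted alone or with the replicate block, which left Tek alone. The second probesets of Angpt1 and Cdh5 passed in the undifferentiated or spindle tumors, at 1.43 ± 0.46 (adjusted p = 0.0412) and 0.55 ± 0.18 (0.0478), where the main probesets did not, at 1.17 ± 0.66 (0.2556) and 0.85 ± 0.42 (0.1805). The second Angpt2 probeset passed in no histological group (limma adjusted p = 0.5302 in poorly differentiated, 0.2375 in undifferentiated or spindle and 0.9145 in mixed tumors). The other Vcam1 probesets did not pass in the mixed tumors, at 2.07 ± 0.84 (0.1566) and 1.34 ± 0.72 (0.2926). They did pass in the undifferentiated or spindle tumors, where 1 other Flt1 probeset did not (0.4275). The second Vegfa probeset passed in every group. In the undifferentiated or spindle tumors Vcam1 passed with any 1 array left out, and other calls were lost, leaving as few as 2 genes. Vegfc and Tek were lost on leaving out any 1 control skin, p53 tumor 3 or 6 or pRbp53 tumor 1 or 3, and Vegfc also without pRbp53 tumor 5. Flt1 was lost without control skin 1, 2 or 4, p53 tumor 6 or pRbp53 tumor 2 or 5, Angpt2 without control skin 1, 3 or 4, and Vegfa without control skin 3. In the mixed tumors Vcam1 was lost without control skin 1, 3 or 4 or p53 tumor 1, Angpt2 without control skin 4 or pRbp53 tumor 4, and Tek without p53 tumor 1, again leaving as few as 2 genes. In the poorly differentiated tumors Angpt2 was lost without p53 tumor 4.

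The wider vascular lists were also compared between the grades. Of the 7 further VEGF and Tie genes, 3 were higher in undifferentiated or spindle tumors, against 3.4% of all probesets. Nrp2, a co-receptor for Vegfc, was 6.44 to 7.49 in poorly differentiated tumors and 9.06 to 9.37 in the others, a difference of 2.18 ± 0.21 (adjusted p = 6.40e-04). Nrp1, a co-receptor for Vegfa, rose by 1.68 ± 0.29 (adjusted p = 0.0104) and Vegfd, a second ligand of Flt4, by 2.15 ± 0.51 (adjusted p = 0.0371). Pgf was lower in undifferentiated or spindle tumors by the mean, at −2.67 ± 0.73, without passing (adjusted p = 0.0619).

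Of the 23 endothelial identity genes, 7 were higher (3.4% of all probesets) with none lower (3.99%). The median was 0.86 against 0.01 over all probesets, and 12 did not overlap between the groups, against 13.8% of all probesets. The 3 with the largest difference were Cd34, a sialomucin of endothelium and progenitors (2.92 ± 0.47, adjusted p = 0.0074), Aplnr, the receptor of Apln (1.99 ± 0.31, adjusted p = 0.0067), and S1pr1, a sphingosine phosphate receptor that steadies vessel walls (1.69 ± 0.25, adjusted p = 0.0051). The mean signal of the list was 6.29 to 6.89 in poorly differentiated tumors, 7.13 to 7.87 in undifferentiated or spindle tumors, 6.77 to 7.73 in mixed tumors and 7.12 to 7.44 in control skin. Of 11 tip cell and Notch genes 1 was lower, with a list median of −0.24. This gene, Esm1, a proteoglycan induced by Vegfa in sprouting endothelium, was 7.02 to 7.89 in poorly differentiated tumors and 3.59 to 5.38 in the others, a difference of −3.20 ± 0.36 (adjusted p = 0.0013). Of 10 mural cell genes, with a median of −0.69, 1 passed: Notch3, a mural cell receptor, fell by 2.55 ± 0.46 (adjusted p = 0.0129). Of 7 measured inhibitors, with a median of 1.34, 2 were higher, Thbs2 by 4.47 ± 0.62 (adjusted p = 0.0041) and Cxcl10 by 3.39 ± 0.59 (adjusted p = 0.0112). Of 6 lymphatic genes 1 was higher, Pdpn at 2.70 ± 0.67 (adjusted p = 0.0450), with a median of 0.78. Of 5 leukocyte adhesion genes 1 was higher, Icam2 at 0.98 ± 0.24 (adjusted p = 0.0429), with a median of 0.76. Of 11 hypoxia genes 1 was higher, Arnt, the partner of Hif1a, at 0.76 ± 0.16 (adjusted p = 0.0215), while the median was −0.73.

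Macrophage and fibroblast markers moved in the same direction as Vcam1 and Pecam1, while the mural cell list had a median of −0.69. Of 9 macrophage genes 7 were higher in undifferentiated or spindle tumors (3.4% of all probesets) with a median of 2.02. The mean signal of the list was 7.48 to 8.12 in poorly differentiated and 8.54 to 10.45 in undifferentiated or spindle tumors. Of 8 fibroblast genes 5 were higher with a median of 2.49, and the list means were 8.24 to 10.18 and 11.24 to 13.09. Of 8 keratinocyte genes none passed between the grades, with a median of −3.09. The part of these cells in the Vcam1 and Pecam1 results was not tested.

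**Figure D4:**
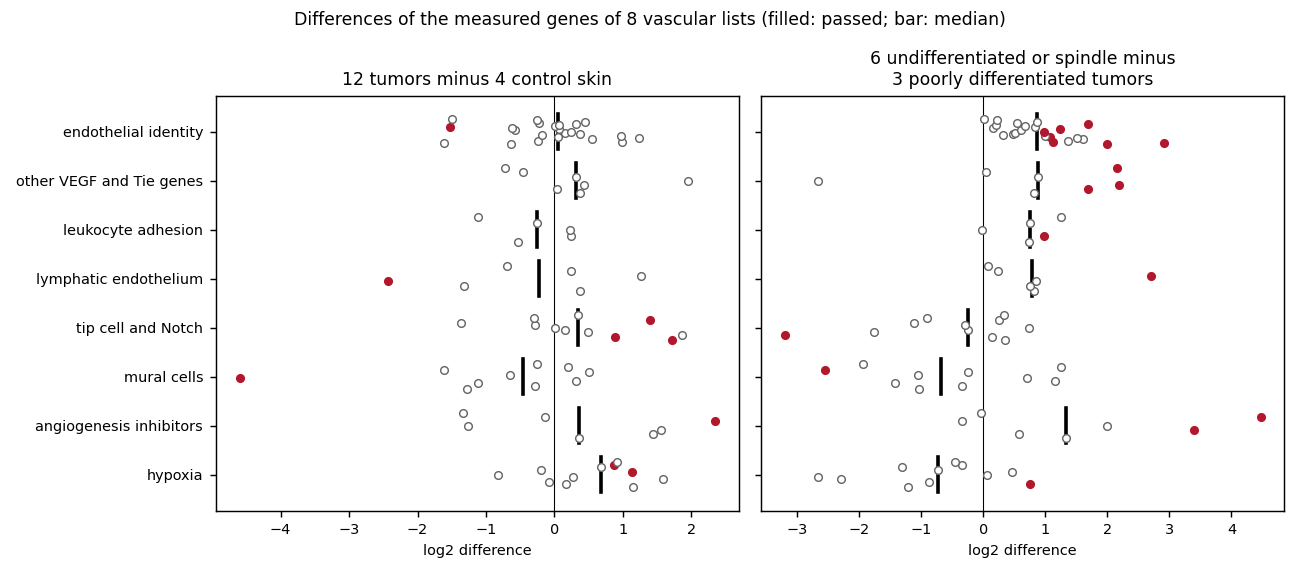
Log2 difference (horizontal axis) of each measured gene of 8 vascular lists, for 12 tumors against 4 control skins (left) and for 6 undifferentiated or spindle against 3 poorly differentiated tumors (right). Each point is a gene, filled red points passed an adjusted p of 0.05, and the black bar is the median of the list. The endothelial identity list has a median of 0.05 on the left and of 0.86 on the right.

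Across the 12 tumors, the other 9 genes were set against Cdh5, whose expression is largely restricted to endothelium. Pecam1 rose and fell with Cdh5, at Pearson's r of 0.78 (permutation p = 0.0029, adjusted over the 9 relations 0.0261) and Spearman's rho of 0.77 (p = 0.0050, adjusted 0.0223). Without the 2 tumors farthest from the median of Cdh5, pRbp53 tumors 2 and 4, its r was 0.85 (adjusted p = 0.0196). Within the 7 p53 tumors r was 0.79, with an unadjusted permutation p of 0.0369 and an adjusted p of 0.3317; the 5 pRbp53 tumors are too few for a value of their own. Kdr had an r of 0.69 (permutation p = 0.0104, adjusted 0.0469) and a rho of 0.78 (p = 0.0042, adjusted 0.0223). Without the same 2 tumors its r was 0.53 (permutation p = 0.1113, adjusted 0.2504) and within the p53 tumors 0.39, and neither passed. Tek had an r of 0.62 (permutation p = 0.0282, adjusted 0.0847) and a rho of 0.36 (p = 0.2560, adjusted 0.5759). It passed without p53 tumor 7, the array with the highest actin ratio, at an r of 0.76 (permutation p = 0.0066, adjusted 0.0297). Vegfa, Vegfc and Vcam1 had r values of 0.03, 0.12 and 0.08 with Cdh5, and Flt1, Angpt1 and Angpt2 of 0.46, 0.35 and 0.47, none of which passed.

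**Figure D5:**
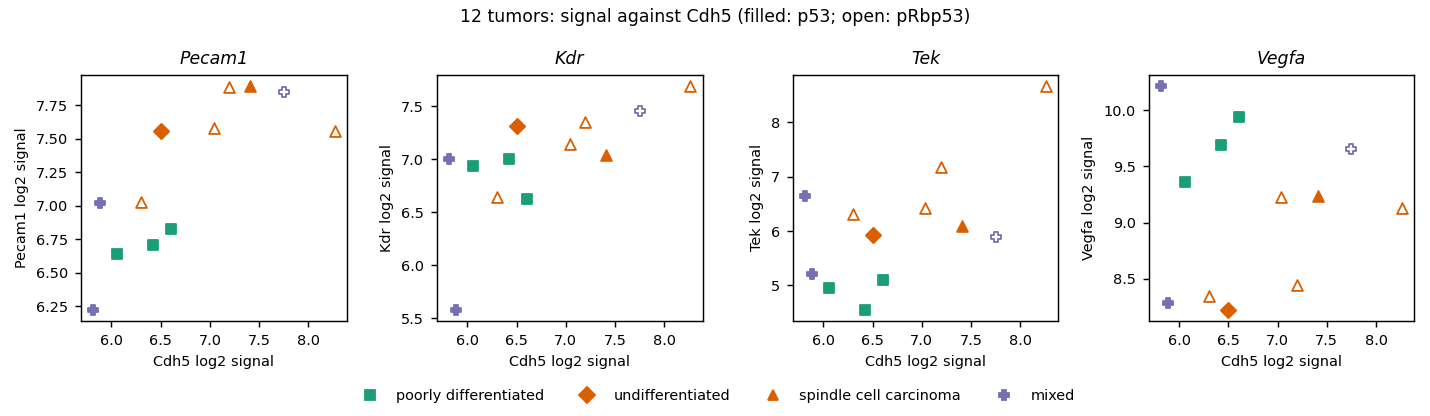
Log2 signal of Pecam1, Kdr, Tek and Vegfa (vertical axes) against that of Cdh5 (horizontal axis) in the 12 tumors. Each point is 1 tumor; its shape and colour give the histology, filled points are p53 tumors and open points pRbp53 tumors. Pecam1 and Kdr follow Cdh5 (r of 0.78 and 0.69), pRbp53 tumor 2 stands at the far right with a Tek signal of 8.67, and Vegfa shows no relation (r of 0.03).

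The genes most like Cdh5 over the 12 tumors, by Pearson's r among the 11413 brighter genes, were Esam, Icam2, Emcn, Ushbp1, Mmrn2 and Igfbp3, with r from 0.88 to 0.89. Pecam1 was at place 39 and Kdr at 186 in this order, Tek at 364, Vcam1 at 4743 and Vegfa at 5386. The genes most like Vegfa were others: Ptprf at 0.94, Adgra3 at 0.90, Setd5 at 0.88 and Acbd6, Bicra and Vangl2 at 0.86. Vegfc and Vcam1 had r values of −0.67 and −0.74 with Vegfa, near the low end of that order, at places 10835 and 11098. These likenesses are descriptions over 12 tumors that differ in genotype and grade.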

How the data were processed

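RNA of 4 control skins and 12 tumors was hybridised to 1 Affymetrix MOE430 2.0 array each. The authors made the values with RMA (no version given), and what they deposited are log2 signals, background corrected, normalized between arrays and summarised by probeset. RMA shrinks differences at low signal, and its shared distribution removes any change common to all genes. Of 45101 probesets, 64 array controls were left out. The platform annotation of 2016 gave 1 symbol to 34945 probesets, several to 932 and none to 9160.

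The main probeset of a gene is the one whose mean over all 16 arrays is highest, and no filter on low signal was used. Models were fitted to all probesets with limma 3.58.1 (R 4.3.3) with two-sided moderated tests and Benjamini-Hochberg adjustment over 45037 probesets. The thresholds were an adjusted p of 0.05, and 0.1 between genotypes. Genotypes and histological groups were set against control skin in models that share 1 spread. Relations used 100000 permutations (scipy 1.17.1). Groups came from titles and the histological labels. The genes named are the 10 genes, up to 4 (grade 3) passing genes of each list by size, any gene of the VEGF list and of the inhibitors, and the 6 most like Cdh5 and Vegfa; Csn2 and the quantities within arrays were chosen outside this rule after values were seen. The 10 genes and the 15 lists (130 of 133 genes measured) were chosen with earlier results of these data known. Icam2 is in both the identity and adhesion lists and Flt4 in both the VEGF and lymphatic lists. Vash1, Plin1 and Cfd are not analysed here. The models were tested on simulated data. Promoters are from RefSeq, which matched 5 of the 10 genes. Alternatives were the replicate number as a block, normalization, filters, weights, thresholds, covariates, subsets and leaving out each array. Leaving out the arrays with milk protein genes was chosen after seeing the data. Same-numbered samples of different groups formed 13 pairs, of which 3 deviated together (r above 0.1), with r from −0.23 to 0.25. The main models took the samples as unpaired. With no reference for the cut, this check cannot exclude pairing. Figures used matplotlib 3.10.9.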

Additional observations from a re-analysis of the deposited data

Results flagged for a closer look

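Single arrays stood apart in 4 of the 40 checks of a gene within a group, where chance gives about 1 in 20. Flt1 in control skin 3 was at 7.26, against at most 6.37 in the other control skins, and this array also had a high actin ratio and Csn2 signal. Kdr in the mixed p53 tumor 1 was at 5.58, against at least 6.63 in the other p53 tumors. Angpt2 in pRbp53 tumor 2 was at 7.96, against at most 7.01 in the other undifferentiated or spindle tumors; the same array held the highest Tek and Cdh5 signals. Vcam1 in the mixed pRbp53 tumor 4 was at 6.67, against at least 9.80 in the other pRbp53 tumors. The part of tissue content or RNA quality in these values was not tested.

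For 2 genes the test between histological grades passed, without telling grade from the high Csn2 signal. All 3 poorly differentiated tumors were p53 tumors, and both calls were lost among p53 tumors only. Pecam1 itself passed against control skin in no histological group. Vcam1 was 2.83 higher on the log2 scale in undifferentiated or spindle than in poorly differentiated tumors, and Pecam1 0.86 higher.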

How the results depend on the processing

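Vegfa, Angpt2 and Vcam1 passed between tumors and control skin under all 32 alternatives run, with differences of 1.34 to 2.07, 0.70 to 1.37 and 2.65 to 3.97. Flt1 lost its call in 14 and Tek in 6, both keeping their direction. The 5 genes called became 3 with the replicate block, at an adjusted p of 0.01 and with pRbp53 tumors alone (each time without Flt1 and Tek), and 3 to 5 when 1 array was left out. With array weights 7 were called and 14405 probesets in all, against 5949. The methods' t-test called 8987 probesets, and an adjusted p of 0.01 3057. The replicate block called 5281 probesets and pRbp53 tumors alone 8237, and 3744 to 6908 were called when 1 array was left out. With control skin 2 and 4 averaged 4 were called, without Flt1, and without the arrays with milk protein genes 4, without Tek. Between genotypes 0 were called in all 25 alternatives, with 19 to 288 probesets called in all, against 89.

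By grade the 2 genes called became 0 with the replicate block (0 of all probesets), among p53 tumors only, and with the mixed tumors added to either side. They became 1 with the methods' t-test (Pecam1), at an adjusted p of 0.01 and with genotype as a covariate (Vcam1), 4 with the filter on dim probesets (Vegfc and Tek added) and 5 at an adjusted p of 0.1, and ranged from 1 to 3 when 1 array was left out. The probesets called by grade were 3326, and 825 with the t-test, 827 among p53 tumors, 1191 and 911 with the mixed tumors added, 1167 and 5436 at the other thresholds and 2024 with genotype as a covariate. With the filter on dim probesets 2970 of 22518 were called, and when 1 array was left out 2039 to 3473. Fewer arrays or pairs remain under the block and in the subset; otherwise the cause was not tested.

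Against control skin, the 6 genes of undifferentiated or spindle tumors became 3 with the replicate block and 2 to 5 when 1 array was left out. The 4 of mixed tumors became 1 when fitted alone and 1 with the block, and 2 to 4 when 1 array was left out. The 4 of p53 tumors became 2 to 4 and the 4 of pRbp53 tumors 1 to 5. Over all probesets, the 8798 of undifferentiated or spindle tumors became 6823 with the block and 6414 to 8678 when 1 array was left out. The 3817 of mixed tumors became 3282 when fitted alone, 2299 with the block and 2591 to 4086 when 1 array was left out. With 1 array left out, the 5382 of p53 tumors became 3362 to 6339 and the 5585 of pRbp53 tumors 3712 to 5569. The 2 relations with Cdh5 became 0 in the 7 p53 tumors and 1 without the 2 farthest tumors.

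Directions turned only for values that had not passed. Between tumors and control skin Pecam1 ran from −0.25 to 0.35, and Angpt1 was −0.62 with p53 tumors alone and −0.10 to 0.30 when 1 array was left out. Between genotypes Angpt2 was −0.01 with array weights and −0.16 to 0.27 when 1 array was left out, and Vegfc −0.06 to 1.03. With histology as a covariate Vegfa was 0.10, Vegfc −0.97 and Vcam1 −0.82, and among undifferentiated or spindle tumors only they were 0.06, −0.71 and −0.25, with Pecam1 at −0.22. By grade Angpt2 was 0.07 with the replicate block and Flt1 −0.02 to 0.63 when 1 array was left out. For r with Cdh5, Vegfa was −0.03 in the p53 tumors and −0.12 without the 2 farthest tumors, Angpt2 −0.18 without them, and Vegfc −0.04 without p53 tumor 7. With the 12 tumors pooled against control skin, the replicate block changed no call of Vegfa, Angpt2 or Vcam1; by subgroup it lost Vcam1 in p53 tumors and all 3 in mixed tumors. Signals of the second Angpt2 and Cdh5 probesets lie below the array medians, which limits what they can show. The same limit holds for some arrays of main probesets. These were Tek in p53 tumors 1, 2, 4 and 5 and Kdr in p53 tumor 1. Vegfc was also below in p53 tumors 5 and 7, pRbp53 tumor 4 and control skin 4. So were Angpt1 in p53 tumors 2, 4 and 7 and pRbp53 tumor 4, and Vcam1 in control skins 1 and 3.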
